A study of Mus musculus with 23 samples.

Results

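Proton-potassium pumps (H,K-ATPases) move protons out of a cell and potassium into it, at the cost of ATP. In the distal nephron they sit mainly in the apical membrane of intercalated cells, where they secrete acid and recover potassium from the urine. 3 mouse genes encode their known subunits: Atp12a encodes the catalytic alpha subunit of the colonic pump, Atp4a that of the gastric pump, and Atp4b the beta subunit that carries the gastric pump to the membrane. The colonic alpha subunit has been reported, in rat tissues, to pair with the beta subunit of the sodium pump, encoded by Atp1b1. A diet low in potassium is known to raise Atp12a in the collecting duct.

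The members were the rows whose Ensembl gene ID carries one of these 3 symbols in GENCODE M21. Each symbol matched 1 ID, so the pumps were 3 genes of 54393 in the deposited tables. The study sequenced RNA from connecting tubules and cortical collecting ducts microdissected from mouse kidneys, with 23 libraries in 4 groups. All mice had the genotype Pax8-rtTA, TRE-LC-1, MRflox/flox, in which doxycycline switches on a Cre that deletes Nr3c2, the mineralocorticoid receptor gene. Pax8-rtTA drives this along the whole renal tubule and not in the dissected segments alone. KO-LK (6 libraries) and KO-NK (6 libraries) were mice that drank doxycycline (2 mg/ml, with 5% sucrose) over 2 weeks, went without it for 2 more weeks, and then ate a low or a normal potassium diet for 4 days. CT-HK (6 libraries) and CT-NK (5 libraries) were mice of the same alleles that drank 5% sucrose alone and then ate a high or a normal potassium diet for 4 days. Doxycycline itself and the loss of the receptor therefore cannot be told apart, and no diet other than normal potassium was given to both knockout and control mice. Ages and sexes are not given in the sources used here, nor is whether each library came from a separate mouse, so p-values measure the spread between libraries.

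Libraries held 16158408 to 34154475 estimated counts. Nr3c2 itself ranged over 34.2 to 74.1 CPM (counts relative to the TMM-scaled library size) in KO-LK, 47.7 to 71.5 CPM in KO-NK, 70.2 to 145 CPM in CT-HK and 66.6 to 151 CPM in CT-NK. It was lower in KO-NK than in CT-NK by a log2 fold change of -0.88 (SE 0.22, edgeR adjusted p = 0.0373), with groups that overlapped. That call was lost under 12 of 38 alternatives, and per transcript length the means lay closer together, at 34.9 ± 5.16 TPM in KO-NK and 40.9 ± 13.5 TPM in CT-NK (-0.17 by limma on log2(TPM + 1), adjusted p = 0.744). 8 libraries stood apart by counts on olfactory and vomeronasal receptor genes above 2500 CPM: 3 of KO-LK, 2 of KO-NK, 1 of CT-HK and 2 of CT-NK. Receptor CPM were relative to the library total without TMM scaling. Proximal tubule markers (12 genes) summed to 236 to 1890 TPM (abundance per transcript length, relative to the library) in KO-LK, 583 to 5000 TPM in KO-NK, 200 to 14600 TPM in CT-HK and 393 to 8560 TPM in CT-NK. Their median sum was highest in CT-NK, at 4380 TPM, against 557 in KO-LK, 894 in KO-NK and 477 in CT-HK. Principal cell markers were present in every group, with summed medians of 5140, 5810, 3860 and 4190 TPM in KO-LK, KO-NK, CT-HK and CT-NK. Of these 11 genes, Stc1 alone was called against CT-NK, higher in KO-NK and in KO-LK, beside 1.7% and 2.04% of all genes. Against CT-HK, Stc1 and Fxyd4 were called higher in both knockout groups, beside 5.78% and 5.49% of all genes. Markers of the connecting tubule (6 genes), the other dissected segment, were present too, at lower medians in the knockout groups: their summed level was 6100 to 24000 TPM in KO-LK (median 18100), 9050 to 21000 in KO-NK (median 13900), 18700 to 67800 in CT-HK (median 54200) and 31200 to 44300 in CT-NK (median 35700). Of the 6, S100g, Klk1 and Calb1 were lower in KO-NK than in CT-NK (median -0.77 over the 6, 0.15 over all genes), with the calls of Klk1 and Calb1 each lost under 13 of 38 alternatives. In KO-LK against CT-NK, S100g and Calb1 were lower and Trpv5 higher. There the Trpv5 call was lost under 8 alternatives, and those of S100g and Calb1 under 1 each. Over all genes, 1.7% were called in KO-NK against CT-NK and 2.04% in KO-LK against CT-NK. The connecting tubule markers include genes of ion handling as well as cell identity, and their part in the results for the pumps was not tested.

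Atp12a (ENSMUSG00000022229) lies on the plus strand of chromosome 14 at 56365068 to 56388550 (GRCm38). Atp4a (ENSMUSG00000005553) lies on the plus strand of chromosome 7 at 30712209 to 30725534, and Atp4b (ENSMUSG00000031449) on the minus strand of chromosome 8 at 13386205 to 13396825. The 2 alpha subunits belong to one family, and over the coding sequence Atp12a was 64.8% identical to Atp4a. Over whole transcripts Atp4a shared 0 of its 3814 distinct 31-base words with any other gene, and Atp4b 0 of 1479. Atp12a shared 453 of 3986 words (11.4%), each of them with Gm10873, a gene annotated on the opposite strand whose exons overlap those of Atp12a (chromosome 14, 56376902 to 56391562). The sources used here do not say whether counting used strand, so reads in that overlap cannot be assigned to one of the 2 genes.

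The 3 genes differed widely in level. Atp4a was the highest in every group, and Atp4b was near the limit of detection. Atp12a lay between them by group means in KO-LK, KO-NK and CT-NK, but in CT-HK its mean (0.248 TPM) was no higher than that of Atp4b (0.33 TPM), with libraries that overlapped. That Atp4b mean rests largely on library CT-HK 4, at 1.65 TPM. By medians Atp12a stood above Atp4b in CT-HK too, at 0.289 against 0.0411 TPM. Per transcript length, Atp4a averaged 108 ± 16.8 TPM in KO-LK, 114 ± 21.1 TPM in KO-NK, 108 ± 29.4 TPM in CT-HK and 115 ± 34.9 TPM in CT-NK (SD, n = 6, 6, 6 and 5). Its mean of 111 TPM over the 23 libraries ranked 848 among the 54393 genes. Atp12a averaged 8.03 ± 4.04 TPM in KO-LK, 8.43 ± 2.83 TPM in KO-NK, 0.248 ± 0.136 TPM in CT-HK and 1.09 ± 0.771 TPM in CT-NK. By these means the order of the groups for Atp12a was KO-NK, KO-LK, CT-NK and CT-HK, and its first 2 neighbours in that order did not differ beyond their spread.

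**Figure D1:**
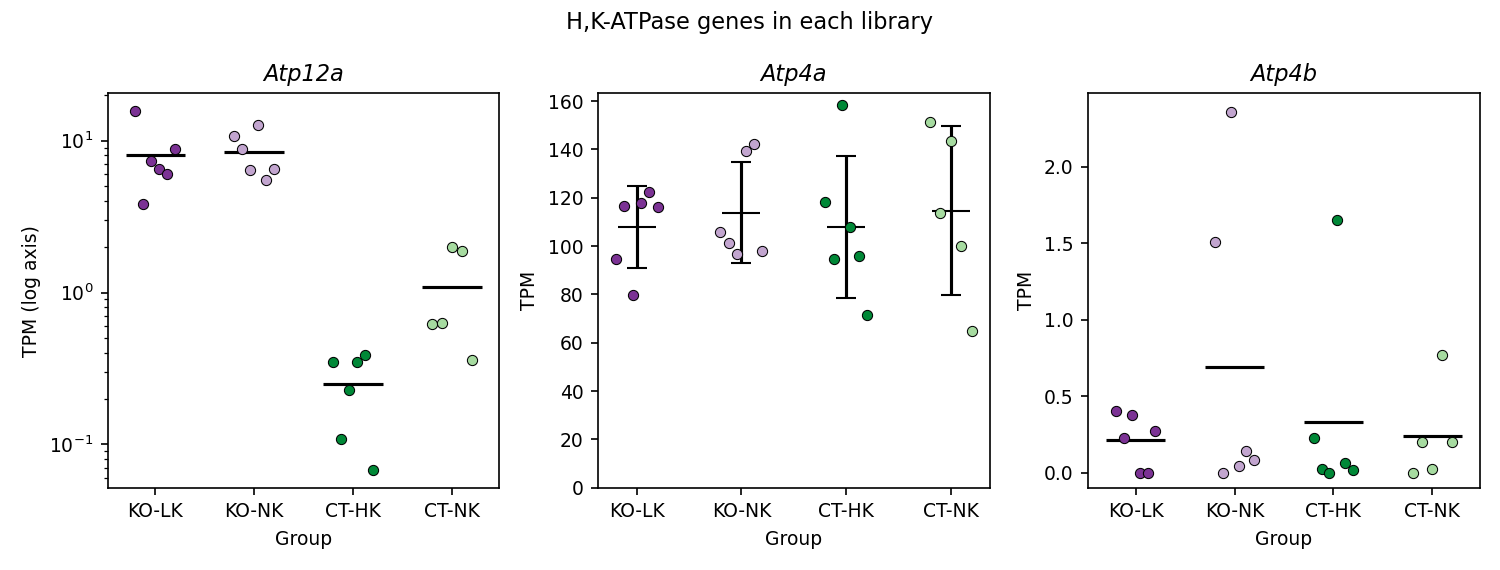
TPM of Atp12a (log axis), Atp4a and Atp4b (linear axes) in each of the 23 libraries, with 1 point per library; horizontal lines are group means and the error bars on Atp4a are SD. All 12 knockout libraries lie above all 11 control libraries for Atp12a, while the groups overlap for Atp4a and Atp4b.

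Atp12a was higher in both knockout groups than in either control group. In KO-LK it was at 3.82 TPM in the lowest library, 6.94 at the median and 15.6 in the highest, and in KO-NK at 5.52, 7.62 and 12.7 TPM. In CT-HK it was at 0.068, 0.289 and 0.385 TPM in the lowest library, at the median and in the highest, and the 5 CT-NK libraries held 0.624, 0.63, 1.99, 1.86 and 0.36 TPM. The lowest knockout library stood above the highest control library. Behind these values were 450 to 1339 estimated counts per library in KO-LK, 470 to 1089 in KO-NK, 12.3 to 61.6 in CT-HK and 42.9 to 261 in CT-NK, so the control values rest on few reads.

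On the shared normal potassium diet, mean Atp12a in KO-NK was 7.71 times that in CT-NK by TPM and 6.4 times by CPM. The edgeR log2 fold change was 2.68 (SE 0.43, adjusted p = 0.00152). Atp12a was the one member of 3 called in that comparison, beside 1.7% of all genes tested (439 of 25829). KO-LK over CT-NK gave 2.58 (SE 0.43, adjusted p = 0.00165), again with 1 of 3 members called, beside 2.04% of all genes. An exact two-sided permutation test of mean TPM over libraries gave p = 0.00433 in both comparisons, the smallest that 6 against 5 libraries allow (adjusted p = 0.0195 over 18 such tests). The call in KO-LK against CT-NK was lost with proximal tubule and thick ascending limb marker levels as covariates (2.13, adjusted p = 0.0505) and without the 8 libraries above 2500 receptor CPM (2.16, adjusted p = 0.117). The call in KO-NK against CT-NK held under every alternative run, with a largest adjusted p of 0.0365. Proximal tubule markers varied in level between libraries of every group, with none of the 12 at 0 throughout a group. Their median log2 fold change over CT-NK was -1.48 in KO-NK and -2.9 in KO-LK (0.15 and -0.04 for all genes). None of the 12 was called in these 2 comparisons, beside 1.7% and 2.04% of all genes. Ttc36, Acsm2 and Slc34a1 were called lower in the mean of knockout against control groups, beside 10.5% of all genes. Leaving out the 2 libraries richest in these markers gave 2.47 for Atp12a in KO-NK over CT-NK and 2.38 in KO-LK over CT-NK.

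Against the high-potassium controls the gap was wider. KO-NK stood above CT-HK by a log2 fold change of 4.57 (SE 0.45, edgeR adjusted p = 1.39e-06) and KO-LK above CT-HK by 4.47 (SE 0.45, adjusted p = 1.19e-06). Mean TPM was 34.0 and 32.3 times higher in these comparisons, and mean CPM 23.7 and 22.1 times higher. In each of them 1 of 3 members was called, beside 5.78% and 5.49% of all genes. The exact permutation p was 0.00216 for both, the smallest that 6 against 6 libraries allow (adjusted p = 0.0194). These contrasts change diet and receptor together and share the CT-HK libraries. Averaged over both diets of each genotype, the edgeR log2 fold change was 3.57 (SE 0.31, adjusted p = 8.47e-08), where 10.5% of all genes were called.

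Gm10873, the antisense neighbour, was not called in any comparison. It averaged 1.37 ± 1.08 TPM in KO-LK, 2.46 ± 2.68 in KO-NK, 0.925 ± 1.14 in CT-HK and 1.28 ± 1.07 in CT-NK, and its edgeR log2 fold change in KO-NK against CT-NK was 0.58 (SE 0.76, adjusted p = 0.87). When the counts of Gm10873 were added to those of Atp12a, as an alternative chosen after the data were seen, Atp12a stood at 2.11 in KO-NK against CT-NK, 1.92 in KO-LK against CT-NK, 3.13 in KO-NK against CT-HK and 2.95 in KO-LK against CT-HK. Each of these 4 was still called, and on the linear scale each but that of KO-NK against CT-NK was smaller by more than 1.5 times. In CT-HK against CT-NK, which was not called, the log2 fold change was then -1.02, in place of -1.89 for Atp12a alone.

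Potassium intake was compared within each genotype. In control mice Atp12a averaged 0.248 ± 0.136 TPM in CT-HK and 1.09 ± 0.771 TPM in CT-NK, and 1 CT-NK library, at 0.36 TPM, lay inside the CT-HK range. The edgeR log2 fold change was -1.89 (SE 0.42), with an unadjusted p of 0.000166 and an adjusted p of 0.497. No gene was called in that comparison by edgeR (0% of 25829), 927 had an unadjusted p under 0.05, and DESeq2 called 20; without CT-HK replicate 6, edgeR called 169, and Atp12a was not among them. Atp12a was among the 20 of DESeq2 (DESeq2 log2 fold change -1.88, adjusted p = 0.00689). The exact permutation test on mean TPM gave p = 0.00866 (adjusted p = 0.0312). Atp12a was thus lower in CT-HK by the test on this gene and by DESeq2, and was not called by edgeR over all genes.

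In knockout mice the diets did not separate Atp12a: 8.03 ± 4.04 TPM in KO-LK and 8.43 ± 2.83 TPM in KO-NK, a log2 fold change of -0.10 (SE 0.38, edgeR adjusted p = 0.964). The highest and the lowest of the 12 knockout values, 15.6 and 3.82 TPM, were both KO-LK libraries. edgeR called no gene between these groups (0%), with 732 at an unadjusted p under 0.05, and DESeq2 called 19. The difference between the diet effects of the genotypes, CT-HK minus CT-NK less KO-NK minus KO-LK, was -1.99 for Atp12a (SE 0.57), with an unadjusted p of 0.00179 and an adjusted p of 0.876. edgeR called no gene for this difference (0%), 974 had an unadjusted p under 0.05, and DESeq2 called 20; without CT-HK replicate 6 edgeR called 214. The diets are not the same pair in the 2 genotypes.

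**Figure D2:**
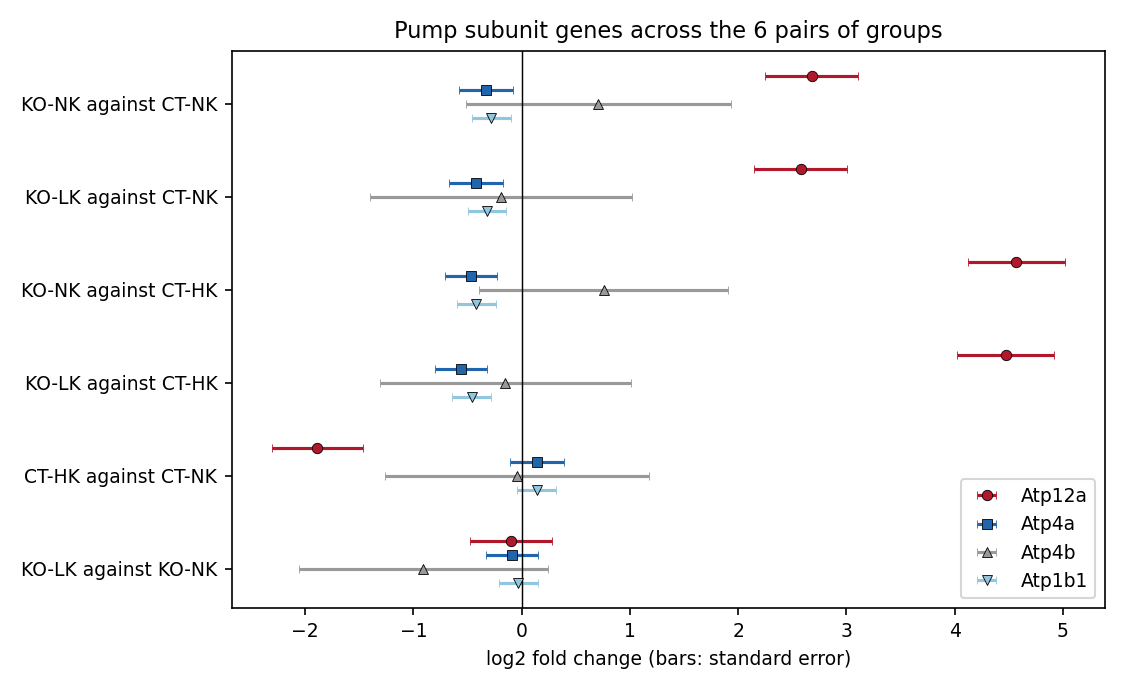
edgeR log2 fold changes of the 3 pump genes and of the sodium pump gene Atp1b1 in the 6 pairs of groups, with bars of 1 standard error. Atp12a lies between 2.58 and 4.57 in the 4 knockout against control pairs, and Atp4a between -0.56 and -0.33, with signs for Atp4a that turn in some pairs when TPM values are tested.

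Atp4a did not pass the test in any comparison. Its libraries ran over 79.7 to 122 TPM in KO-LK, 96.7 to 142 in KO-NK and 71.4 to 158 in CT-HK, and the CT-NK libraries held 151, 114, 144, 100 and 64.9 TPM, so the groups overlapped. The edgeR log2 fold change was -0.33 (SE 0.25, adjusted p = 0.734) for KO-NK over CT-NK, -0.42 (SE 0.25, adjusted p = 0.553) for KO-LK over CT-NK, -0.47 in KO-NK against CT-HK and -0.56 in KO-LK against CT-HK (adjusted p = 0.22). On the TPM scale the difference in means was -0.8 TPM for KO-NK against CT-NK and 6.16 TPM for KO-NK against CT-HK, with exact permutation p of 0.935 and 0.677. The direction of Atp4a thus depended on the scale. TPM carries no TMM scaling, and over all genes tested the median log2 fold change of KO-NK over CT-NK was 0.15 in the edgeR fit and 0.38 by limma on log2(TPM + 0.1). Averaged over both diets of each genotype the log2 fold change was -0.45 (SE 0.17, edgeR adjusted p = 0.109). Under DESeq2 that average was called (-0.47, adjusted p = 0.0283).

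The share of Atp12a in the summed TPM of the 2 alpha subunits does not depend on how libraries are scaled to each other. It was 7.12 ± 3.88% in KO-LK, 6.94 ± 1.97% in KO-NK, 0.229 ± 0.127% in CT-HK and 0.942 ± 0.623% in CT-NK (SD). The libraries spanned 3.17 to 14.1% in KO-LK, 3.74 to 9.17% in KO-NK, 0.0952 to 0.401% in CT-HK and 0.411 to 1.83% in CT-NK. KO libraries did not overlap control libraries, and CT-HK did not overlap CT-NK. Exact permutation tests on the share gave an adjusted p of 0.0052 over 6 pairs of groups in every pair except KO-LK against KO-NK (0.922). The summed alpha TPM was 116 ± 15.4 in KO-LK, 122 ± 21.9 in KO-NK, 108 ± 29.4 in CT-HK and 116 ± 35.1 in CT-NK, so Atp12a remained the minor alpha transcript in each group.

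**Figure D3:**
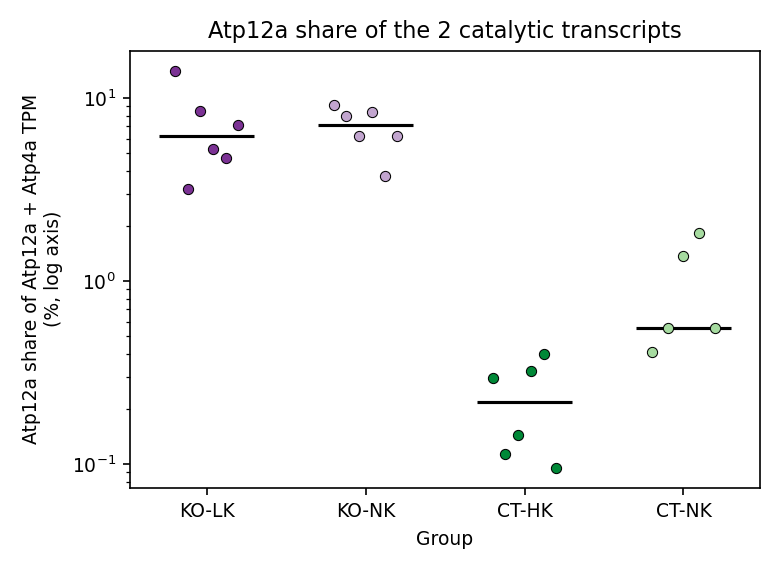
Atp12a as a percentage of Atp12a plus Atp4a TPM (log axis) in each library, with lines at group medians. Knockout libraries lie between 3.17 and 14.1%, high-potassium controls between 0.0952 and 0.401% and normal-potassium controls between 0.411 and 1.83%.

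Atp4b was at the limit of detection. It had 166 estimated counts over the 23 libraries, 0 to 28 per library, and 5 libraries were at 0, where a count of 0 allows up to 0.1 to 0.122 CPM by counting error alone. Mean TPM was 0.213 ± 0.177 in KO-LK, 0.689 ± 1 in KO-NK, 0.33 ± 0.653 in CT-HK and 0.239 ± 0.312 in CT-NK, and no comparison called it (0.71 for KO-NK over CT-NK, SE 1.22, edgeR adjusted p = 0.895). Over all libraries the mean TPM of Atp4a was 297 times that of Atp4b, and that of Atp1b1 was 1340 times. All libraries held counts on olfactory and vomeronasal receptor genes, at 324 to 9123 CPM, and the largest Atp4b values came from those with the most. 4 libraries had 15 or more Atp4b counts, KO-NK 1 (28), KO-NK 3 (26), CT-HK 4 (27) and CT-NK 4 (15). These were the 4 libraries highest in receptor CPM. In the 8 libraries above 2500 receptor CPM Atp4b had 8 to 28 counts (median 12.5), against 0 to 8 (median 1) in the other 15. The antisense gene Gm10873 went with them, at 101 to 345 counts (median 197) in the 8 and 13 to 107 (median 41.8) in the other 15. Whether receptor counts account for the Atp4b values was not tested.

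**Figure D4:**
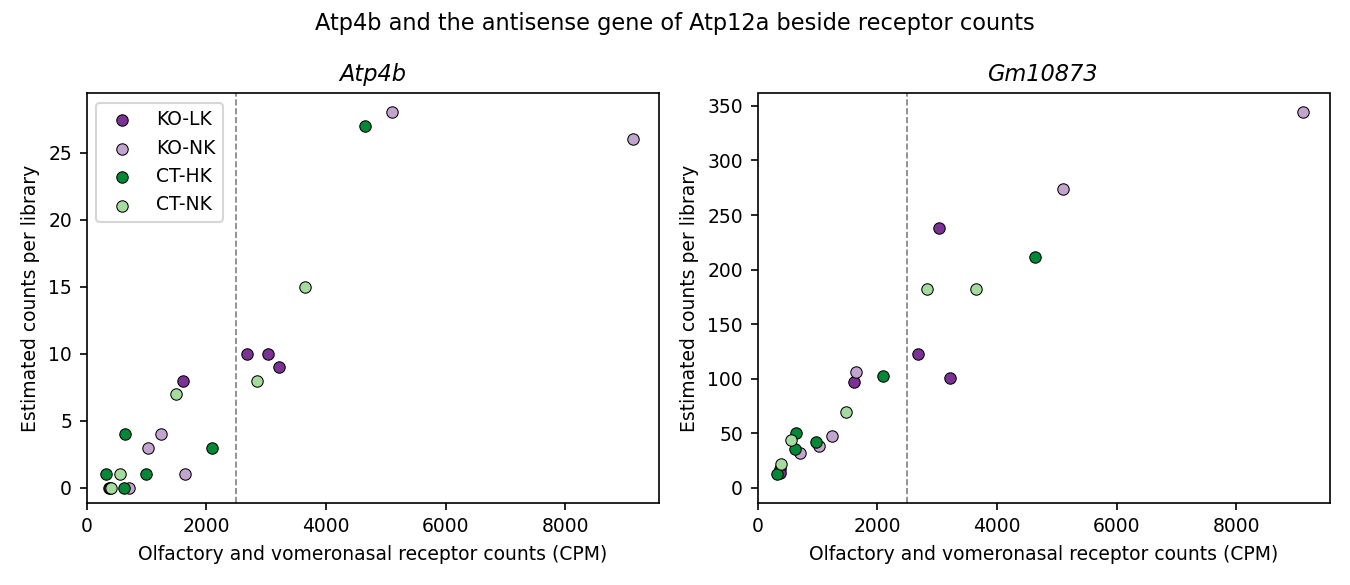
Estimated counts of Atp4b (left) and of Gm10873 (right) against olfactory and vomeronasal receptor counts in CPM, with 1 point per library, coloured by group, and a dashed line at 2500 CPM. The libraries with the most Atp4b counts, 15 to 28, are the 4 farthest to the right.

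Gastric epithelial markers (11 genes, 10 in the tables) stayed low: their summed level was 1.03 to 6.57 TPM in KO-LK, 1.15 to 8.83 in KO-NK, 0.754 to 4.7 in CT-HK and 2.03 to 6.54 in CT-NK. 4 of them were tested and none was called, beside 1.7% of all genes in KO-NK against CT-NK and 2.04% in KO-LK against CT-NK.

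The beta subunits of the sodium pump were read beside Atp12a, since one of them can pair with it. Of 8 sodium pump genes, all tested, none was called in KO-NK against CT-NK or in KO-LK against CT-NK, beside 1.7% and 2.04% of all genes. Their median log2 fold change was 0.11 and -0.25, against 0.15 and -0.04 for all genes. Atp1b1, the main renal beta subunit, averaged 510 ± 80.5 TPM in KO-LK, 512 ± 48.7 in KO-NK, 474 ± 71.2 in CT-HK and 500 ± 113 in CT-NK (SD), with groups that overlapped, and was not called in any comparison. Its exons overlap those of Nme7. Atp1b3, another beta subunit, averaged 101 ± 13.3 TPM in KO-LK, 93.4 ± 9.92 in KO-NK, 55.2 ± 6.18 in CT-HK and 64.9 ± 11.9 in CT-NK and was not called by edgeR on counts (0.19 for KO-NK over CT-NK, SE 0.16, adjusted p = 0.781). Atp1b2, a beta subunit known mainly from the nervous system, was low, at 2.83 ± 0.489 TPM in KO-LK, 2.13 ± 0.967 in KO-NK, 0.742 ± 0.276 in CT-HK and 1.15 ± 0.336 in CT-NK. It was higher in KO-LK than in CT-HK (1.30, SE 0.29, edgeR adjusted p = 0.00738) and stood at 0.96 (adjusted p = 0.116) in KO-LK over CT-NK.

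Genes that have been linked to the colonic pump were followed as a list of 5, which also held both corticosteroid receptors. Gdf15, a circulating stress signal tied to intercalated cell growth in potassium-restricted mice, averaged 1220 ± 372 TPM in KO-LK, 1280 ± 303 in KO-NK, 55.6 ± 47.4 in CT-HK and 254 ± 222 in CT-NK. It was higher in KO-NK than in CT-HK (4.04, SE 0.57, edgeR adjusted p = 8.24e-05) and in KO-LK than in CT-HK (3.93, adjusted p = 0.000107). Against CT-NK its log2 fold change was 2.12 in KO-NK (adjusted p = 0.0518) and 2.01 in KO-LK (adjusted p = 0.0605), which missed the threshold. Pgr, the progesterone receptor, stayed between 0.166 and 0.471 TPM in the group means and was not called, nor was Cd63, a tetraspanin reported to bind the colonic alpha subunit.

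None of 21 acid secretion genes and none of 16 potassium channel and transporter genes was called in either knockout group against CT-NK. Beside them, 1.7% of all genes were called in KO-NK and 2.04% in KO-LK. Their medians were -0.14 and 0.04 in KO-NK (0.15 for all genes) and -0.16 and -0.15 in KO-LK (-0.04 for all genes). Against CT-HK, where 5.78% of all genes were called in KO-NK and 5.49% in KO-LK, 1 of 21 acid secretion genes was lower in KO-NK and 3 of 21 in KO-LK, with none higher. Atp6v1e1, a subunit of the vacuolar proton pump, was lower in both KO-NK (-0.65, edgeR adjusted p = 0.0289) and KO-LK (-0.79, adjusted p = 0.00804). 2 further subunits, Atp6v1b2 (-0.56, adjusted p = 0.0399) and Atp6v1c1 (-0.52, adjusted p = 0.0464), were lower in KO-LK. In TPM, which carries no TMM scaling, the means of these 2 were not lower in KO-LK. Atp6v1b2 averaged 61 TPM in KO-LK and 58.2 in CT-HK, and Atp6v1c1 46.9 and 46.3. Atp6v1e1 averaged 586 TPM in KO-LK, 629 in KO-NK and 683 in CT-HK. Of the 16 potassium genes, 1 was lower in KO-NK, and 1 was higher and 1 lower in KO-LK. Kcnj10, a basolateral potassium channel, was the lower one in KO-NK (-0.61, adjusted p = 0.0434) and KO-LK (-0.65, adjusted p = 0.0295). In TPM it averaged 15.6 ± 3.14 in KO-LK, 16 ± 2.41 in KO-NK and 17 ± 3.86 in CT-HK. Kcnk1, a potassium channel of the background leak family, was the higher one in KO-LK (0.59, adjusted p = 0.0485).

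Markers of the cells that hold these pumps were read beside Atp12a, since in bulk tissue fewer cells of a type and less RNA per cell cannot be told apart. Of 7 markers of intercalated cells in general 1 was called, beside 1.7% of all genes: P2ry14, a receptor for UDP-glucose, was higher in KO-NK than in CT-NK (0.90, SE 0.22, edgeR adjusted p = 0.0387), a call lost under 14 of 38 alternatives. P2ry14 was also the 1 of 7 called higher in KO-LK against CT-NK, beside 2.04% of all genes, a call lost under 8 alternatives. Against CT-HK it was the 1 called higher in both knockout groups, beside 5.78% and 5.49% of all genes. Its mean was 15.1 TPM in KO-LK, 15.5 in KO-NK, 4.41 in CT-HK and 5.94 in CT-NK. Foxi1, the transcription factor of intercalated cells, averaged 230 ± 27.4 TPM in KO-LK, 198 ± 42.8 in KO-NK, 146 ± 45.8 in CT-HK and 163 ± 36.7 in CT-NK. It was not called (-0.05 in KO-NK against CT-NK, edgeR adjusted p = 0.952). None of 7 alpha intercalated markers was called against CT-NK in either knockout group, beside 1.7% of all genes in KO-NK and 2.04% in KO-LK. Slc4a1, the chloride-bicarbonate exchanger among them, stood at 0.80 (SE 0.46, edgeR adjusted p = 0.566) in KO-NK against CT-NK. The median of these 7 was 0.71 in KO-NK over CT-NK (0.15 for all genes) and 0.86 in KO-NK over CT-HK (0.21 for all genes), where Dmrt2, a transcription factor, was called higher (1.23, SE 0.25, adjusted p = 0.00379) beside 5.78% of all genes. In KO-LK the medians were -0.12 over CT-NK and 0.31 over CT-HK, with none called. Of 6 beta intercalated markers, Spink8 (-1.53, adjusted p = 0.000508) and Fgf12 (-0.97, adjusted p = 0.0387) were lower in KO-NK than in CT-NK, beside 1.7% of all genes. The Fgf12 call was lost under 15 of 38 alternatives and that of Spink8 under none of them. Both genes were also called lower in KO-LK against CT-NK, beside 2.04% of all genes, where the Fgf12 call was lost under 3 alternatives. Against CT-HK, Spink8 was called lower in both knockout groups and Fgf12 in KO-LK. The summed level of the general markers was 1550 to 2100 TPM in KO-LK, 1330 to 2070 in KO-NK, 1000 to 1800 in CT-HK and 1110 to 2330 in CT-NK. With the mean level of the intercalated lists as a covariate, Atp12a stood at 2.68 in KO-NK against CT-NK and 2.67 in KO-LK against CT-NK, and at 4.47 and 4.45 against CT-HK, and was called in each.

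Over the 23 libraries, the genes whose log2 CPM most resembled that of Atp12a among 10589 genes were Plppr1 (Pearson r = 0.93), Egln3 (0.93), Cdkn1a (0.93), Mcl1 (0.92) and Arntl (0.92). Much of this likeness is the difference between groups that all of them share: after removing group means, r was 0.62, 0.42, 0.32, 0.51 and 0.51. The genes least like it were Fkbp11 (-0.92), Klf15 (-0.91) and P2ry1 (-0.91), with r of -0.21, -0.31 and -0.21 after removing group means. Plppr1, a membrane protein of the phospholipid phosphatase family, averaged 40.2 ± 5.98 CPM in KO-LK, 50.2 ± 11.4 in KO-NK, 14.6 ± 3.51 in CT-HK and 22.2 ± 9.26 in CT-NK. Arntl, the clock transcription factor, averaged 17.2 ± 6.77 CPM in KO-LK, 27.6 ± 5.14 in KO-NK, 2 ± 0.693 in CT-HK and 6.55 ± 5.65 in CT-NK. The points share libraries, depth and group differences, so the values are given as a description.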

How the data were processed

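Gene tables were deposited by the authors as estimated counts per gene and as TPM. Per the submitters' processing notes these were made with Salmon 0.14.10 on GRCm38.p6; per the labels' protocols, cDNA came from a SMART-Seq HT kit and Nextera XT libraries, and strandedness is not given in the sources used here. All 54393 gene IDs matched GENCODE M21. The deposited estimated counts were not whole in 35.9% of values and were rounded. edgeR 4.0.16 (R 4.3.3) fitted 1 mean per group over the 23 libraries with TMM scaling and filterByExpr, which left 25829 genes and all 3 members, and its quasi-likelihood test was adjusted by Benjamini-Hochberg over those genes (threshold 0.05; 19 residual degrees of freedom). limma 3.58.1 on log2(TPM + 1) and DESeq2 1.42.0 were alternatives. Exact two-sided permutation tests of mean TPM used SciPy 1.17.1, adjusted over 18 tests. On data simulated for KO-NK against CT-NK over 25829 genes, 57% of 100 genes changed 2-fold and 91% of 100 changed 4-fold were recovered, with 6 false calls.

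Depth was 16158408 to 34154475 estimated counts per library; intervals and limits at 0 cover counting error only. The members and the 17 gene lists were chosen with earlier results of these data known. Genes named were the members, Nr3c2, a fixed set, up to 3 called members of each list and comparison with the smallest p, and the 5 most and 3 least correlated with Atp12a, among genes of at least 5 CPM on average. Replicate numbers were not used to pair the libraries in the main fit. Identity was counted over global alignments of GENCODE M21 coding sequence (Biopython 1.88). Some results are not reported here.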

Additional observations from a re-analysis of the deposited data

Results flagged for a closer look

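Atp4b in library CT-HK 4 stood at 1.65 TPM, far from the other CT-HK libraries, the nearest of which was at 0.225 TPM. Atp4b in library CT-NK 4 stood at 0.771 TPM, with the nearest CT-NK library at 0.199 TPM. Of 12 gene and group combinations examined, these 2 had a library far from the rest. The rule flags about 1 in 20 by chance where values are normally distributed. Atp4b lay near the limit of detection, so that rate need not apply to it. Libraries CT-HK 4 and CT-NK 4 are both among the 8 with more than 2500 CPM on olfactory and vomeronasal receptor genes, at 4644 and 3656 CPM. Whether receptor counts and Atp4b share a source was not tested.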

How the results depend on the processing

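Atp12a kept its call in KO-NK against CT-NK (2.47 to 3.06 when 1 library was left out in turn), KO-NK against CT-HK (4.37 to 4.8), KO-LK against CT-HK (4.27 to 4.7) and the mean of knockout against control groups (3.47 to 3.76) under every alternative. In KO-LK against CT-NK it kept it in 36 of 38, with 2.34 to 2.96 when 1 library was left out, and lost it with proximal tubule and thick limb covariates (2.13) and without the libraries above 2500 receptor CPM (2.16); the cause was not tested. A pseudocount of 1 on TPM lowered Atp12a to 2.87 in KO-NK against CT-HK and 2.76 in KO-LK against CT-HK. In CT-HK against CT-NK, DESeq2 called it (-1.88), and no other alternative did (-2.12 to -1.5 when 1 library was left out); it was -0.68 by limma on log2(TPM + 1) and -1.02 with Gm10873 counts added. Its near-zero difference in KO-LK against KO-NK changed sign when 1 library was left out (-0.34 to 0.12).

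Replicate numbers were not used to pair the libraries in the main fit. Correlations of deviations between same-numbered libraries ran from -0.7 to 0.71. Differently numbered libraries were not set beside them, so this range cannot decide whether the numbers carry a pairing. With the replicate block Atp12a stood at 2.87 in KO-NK against CT-NK, 2.68 in KO-LK against CT-NK, 4.66 in KO-NK against CT-HK and 4.47 in KO-LK against CT-HK, and no call of a member changed; the 439 genes called in KO-NK against CT-NK became 394.

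Uncalled values of Atp4a and Atp4b changed sign, and the cause was not tested. By limma on TPM, Atp4a stood at 0.03 in KO-NK against CT-NK, 0.1 in KO-NK against CT-HK, 0.03 in KO-LK against CT-HK, -0.07 in CT-HK against CT-NK and 0.03 in the mean contrast, where Atp6v1b2 stood at 0.04. As differences in CPM, Atp4a stood at -154.0 in KO-NK against CT-HK, -177.0 in KO-LK against CT-HK and 50.1 in CT-HK against CT-NK, and Atp4b at -0.00807 in CT-HK against CT-NK. Atp4a in CT-HK against CT-NK was -0.05 with the proximal and thick limb covariates and also without the receptor-rich libraries, and -0.01 to 0.42 with 1 library left out; in KO-LK against KO-NK it was 0.02 without the receptor-rich libraries and -0.17 to 0.04 with 1 left out. Atp4a passed the threshold under the intercalated covariate in KO-NK against CT-HK (-0.56), KO-LK against CT-HK (-0.57) and the mean contrast (-0.42), and under the stricter filter in KO-LK against CT-HK (-0.52) and the mean contrast (-0.42). Atp4b in KO-LK against CT-NK was 0.04 by limma on log2(TPM + 0.1), 0.11 with the replicate block, 0.06 with the intercalated covariate, 1.38 with the proximal and thick limb covariates and -0.5 to 0.52 with 1 library left out. In KO-LK against CT-HK it was 0.19, 0.68 with the block, 0.77 with the proximal and thick limb covariates, and -0.4 to 1.59. In CT-HK against CT-NK it was 0.03 by limma on log2(TPM + 1), 0.27 with a length offset, 0.15 with the intercalated covariate, 0.61 with the proximal and thick limb covariates, 0.3 without the 2 libraries richest in proximal tubule markers, and -1.78 to 0.66. In the mean contrast it was -0.01 to 1.15 with 1 library left out.

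Counts of all genes called moved with these settings. KO-NK against CT-NK had 186 with no count filter and 2262 by limma on log2(TPM + 1), or 3577 with a minimum mean TPM of 1 as well, against 439, and 233 without CT-NK replicate 5 or 919 without KO-NK replicate 3. KO-LK against CT-NK had 141 to 4998, against 528. KO-NK against CT-HK had 799 to 5912, against 1494, and KO-LK against CT-HK 825 to 7160, against 1418. By limma on log2(TPM + 1), 96.8% of the genes called in KO-NK against CT-NK were higher, against 55.1% by edgeR. Fitting only the groups compared gives no value for the mean contrast or the difference of diet effects. Depth limits Atp4b, at 0 to 28 counts a library, and Atp12a in CT-HK, at 12.3 to 61.6.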
